A study of Mus musculus with 67 samples.

Results

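The comparison described here is between 2 sets of wild-type mouse epiblast libraries of embryonic day 5.0 (E5.0), the unsuffixed set and the set whose stage label ends in "invivo". Each set held 3 RNA-seq libraries, so 6 of the 67 libraries of the series enter it, and all genes measured in both are its members. Both sets are labelled Epi tissue and wild type, and the labels name no agent or other allele that sets them apart. The series used embryo culture beside dissection from the decidua, and the label of the unsuffixed set does not say which of these it came from. Lineages were isolated with mice that carry EGFP under the Pdgfra promoter, a reporter of the primitive endoderm, per the design text. About 10 to 100 cells were lysed for a library and the cDNA was amplified for 17 cycles, per the labels' protocols. Biological replicates are stated, without saying whether they came from separate litters or embryos, so the p-values measure a spread among libraries. That spread was estimated for each gene over all 67 libraries of 23 groups, not over these 6 alone.

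The epiblast is the pluripotent tissue from which the whole fetus arises. Around implantation it leaves the naive state of the blastocyst, turns into a polarized epithelium round a lumen, and enters a formative state in which FGF and Nodal signals prepare it for gastrulation. The extra-embryonic ectoderm beside it secretes BMP4, and the primitive and visceral endoderm that wraps it supplies further signals and nutrients. Because a library is a small pool of cells, fewer cells of a type and less RNA per cell cannot be told apart in any value given here.

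Values were TPM, the abundance of each transcript as a share of its library after scaling by length, and differences are unsuffixed minus in vivo on the log2(TPM + 1) scale, ± standard error. Calls required a difference of at least 1 log2 unit in either direction with an adjusted p below 0.05. Of 15699 genes tested, 3214 were called higher in unsuffixed libraries, which is 20.5% of those tested. Another 407 were called lower, which is 2.59%. The median difference over all genes was 0.33. These include genes low in the 6 libraries, because the filter of 1 TPM in 3 libraries counted all 67. With that filter applied within the 6 libraries, 3156 of 10564 genes were called higher and 389 lower, with a median of 0.55. The share of higher genes was thus larger within that filter than the 20.5% of all genes. Lists of genes expressed in the epiblast are to be read beside these values too, also where only the 20.5% is repeated. A fit of the 6 libraries alone called 1897 higher and 260 lower. For Mdm2 its standard error was 0.51 with an adjusted p of 0.0141, against 0.23 and 4.6e-17 in the fit of all groups. For Zfp42 its standard error was smaller, 0.10 against 0.24, and the adjusted p was 0.0022 against 1.5e-08. The standard errors below come from the fit of all groups and do not show the agreement of the 3 libraries of a group.

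The direction of the whole comparison depended on the scaling. The share of higher genes among all calls was 88.8% on TPM, 55.0% after quantile normalization (1631 higher and 1336 lower) and 64.2% after median-ratio scaling (2025 and 1130). It was 43.5% after a correction for transcript GC content (1363 and 1767). The median difference of all genes was 0.33 on TPM, -0.05 after quantile normalization, 0.09 after median-ratio scaling and -0.26 after the GC correction. Under these 3 alternatives and with the ribosomal RNA precursor Rn45s kept, 1194 of the 15699 genes were called higher every time and 296 lower every time. Below, "under every scaling" refers to these 4 alternatives and TPM together. The counts that held in single lists are to be read beside the 1194 and 296 of all genes.

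Several features of the libraries moved with the groups, and their part in the results was not tested. Rn45s took 0.375% to 1.20% of the deposited TPM in unsuffixed libraries and 8.32% to 11.2% in vivo, and was removed before scaling. Between 10464 and 11183 genes reached 1 TPM in unsuffixed libraries, and between 8999 and 9412 in vivo. Across genes, the Pearson correlation of log2(TPM + 1) was 0.966 to 0.975 among unsuffixed libraries, 0.946 to 0.950 among in vivo libraries and 0.904 to 0.921 between the groups. Genes of higher GC content were more often higher in unsuffixed libraries. The 6867 genes with a known GC content and a mean of at least 5 TPM were split into 10 bins. These leave out low genes, so the 20.5% of all genes is not their background. By GC content, the lowest bin (31.2% to 42.6%) had a median difference of 0.03, with 17.2% called higher and 11.4% called lower. The highest bin (57.7% to 72.8%) had a median difference of 1.04, with 45.4% called higher and 2.33% called lower. Genes with long transcripts were also more often higher. In 10 bins of the same 6867 genes by transcript length, the shortest bin (64 to 606 bases) had a median difference of 0.26 with 19.8% called higher. The 3 longest bins had medians of 0.78 to 0.87 with 38.0% to 41.5% called higher. The 6 bins between them had 24.2% to 32.2% called higher. The deposited TPM values hold no read depth, so no counting error can be given for any of them.

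**Figure D1:**
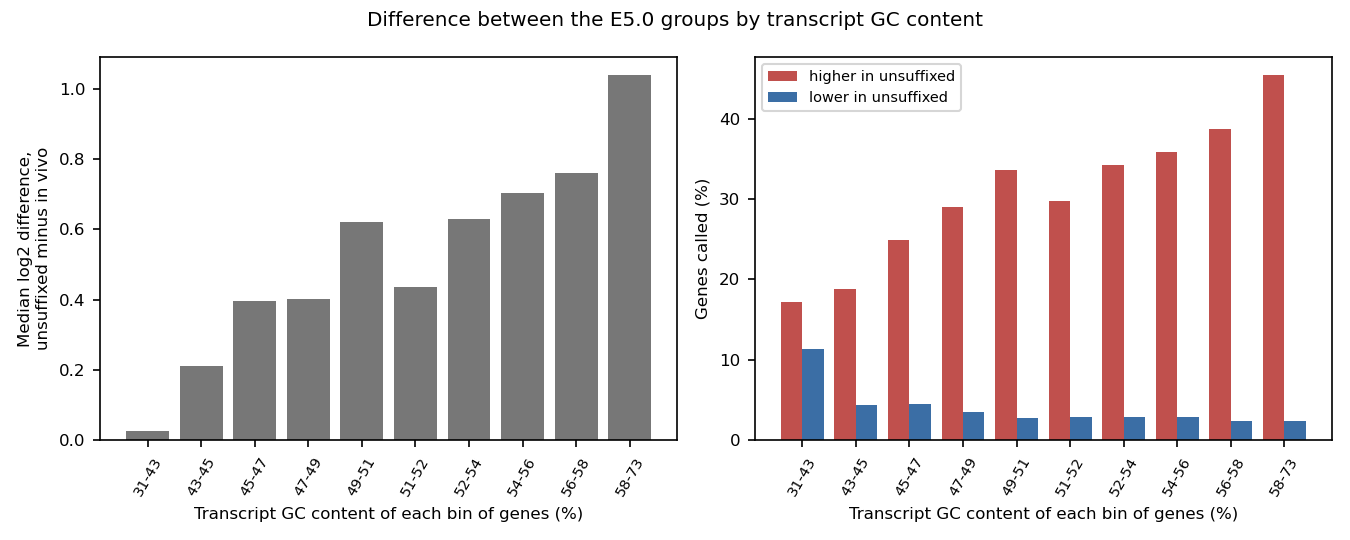
Left, median log2(TPM + 1) difference, unsuffixed minus in vivo, and right, percent of genes called higher or lower in unsuffixed libraries, for 10 bins of 6867 genes (mean of at least 5 TPM) ordered by transcript GC content in percent. The median was 0.03 in the first bin and 1.04 in the last, and the percent called higher was 17.2 in the first and 45.4 in the last.

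The epiblast identity of both groups was checked with pluripotency genes. Pou5f1, which encodes the core pluripotency factor OCT4, had 189.9, 149.6 and 137 TPM in unsuffixed libraries, against 78.2, 58.0 and 87.3 TPM in vivo. Both groups expressed it, and no unsuffixed library was as low as an in vivo one. Its difference of 1.09 ± 0.43 (adjusted p = 0.0451) passed the test narrowly and was lost after quantile normalization, median-ratio scaling and the GC correction, without any 1 of the 6 libraries, with no filter on low values, and with a pseudocount of 0.1 TPM. Without in vivo replicate 2 it was 0.92 with an adjusted p of 0.162. Otx2, a formative transcription factor, had 47.1, 39.8 and 53.8 TPM in unsuffixed libraries, against 42.9, 59.8 and 49.5 TPM in vivo. These values overlapped, and the difference was -0.11 ± 0.41 (adjusted p = 0.932). Sox2, a partner of OCT4, had 3.43, 0.760 and 1.16 TPM in unsuffixed libraries, against 4.46, 1.47 and 2.56 TPM in vivo. It was low in both groups, its libraries overlapped, and its difference of -0.50 ± 0.40 was not called on TPM but became a lower call after quantile normalization (-1.39) and the GC correction (-1.12).

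Of 10 core pluripotency genes, 3 were higher and 0 were lower, with a median difference of 0.66 against 0.33 over all genes. Over genes that passed the filter within the 6 libraries, the median was 0.55 and 3156 of 10564 were higher, a share near that of the list. Tdgf1 was the only 1 of the 10 called under every scaling. It encodes CRIPTO, a co-receptor for Nodal, and had 316, 274 and 264 TPM in unsuffixed libraries, against 61.3, 48.8 and 90.9 TPM in vivo. Every unsuffixed library held more than any in vivo library, with a difference of 2.11 ± 0.21 (adjusted p = 2.4e-11).

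Part of the naive and of the formative genes were higher in unsuffixed libraries. Of 15 naive genes 5 were called higher and 0 lower, with a median of 0.45, and 4 of them were higher under every scaling. Their median lay between the 0.33 of all genes and the 0.55 of genes that passed the filter within the 6 libraries. Of 16 formative and primed genes 6 were higher and 0 lower, with a median of 0.73, and 5 were higher under every scaling. Among genes that passed the filter within the 6 libraries, 3156 of 10564 were higher. That share was near that of the naive list and somewhat below that of the formative list. Both medians fell below 0 with the GC correction, to -0.50 and -0.11, as the median of all genes did (-0.26). Among the naive genes Zfp42, which encodes the marker REX1, had 167, 166 and 168 TPM in unsuffixed libraries, against 39.8, 51.8 and 45.0 TPM in vivo. The unsuffixed libraries were nearly equal and all stood above the in vivo ones, by 1.86 ± 0.24 (adjusted p = 1.5e-08). Klf5, a Krüppel-like factor of the naive network, had 19.7, 13.01 and 16.2 TPM in unsuffixed libraries, against 1.34, 1.75 and 3.01 TPM in vivo. The groups did not overlap and differed by 2.53 ± 0.34 (adjusted p = 3.0e-08).

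Among the formative genes, Fgf5, an FGF ligand that marks the post-implantation epiblast, had 63.4, 49.9 and 85.6 TPM in unsuffixed libraries, against 14.6, 10.8 and 16.7 TPM in vivo. The lowest unsuffixed library lay well above the highest in vivo one, with a difference of 2.14 ± 0.49 (adjusted p = 4.7e-04). Dnmt3b, the main de novo DNA methyltransferase of this tissue, had 547, 493 and 588 TPM in unsuffixed libraries, against 137, 135 and 190.1 TPM in vivo. Its groups were separate, by 1.82 ± 0.21 (adjusted p = 1.3e-09). Lef1, a transcription factor that acts with beta-catenin, had 42.2, 27.3 and 38.6 TPM in unsuffixed libraries, against 3.49, 1.88 and 6.90 TPM in vivo. It was low in all in vivo libraries, and the difference was 2.96 ± 0.31 (adjusted p = 4.4e-11).

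**Figure D2:**
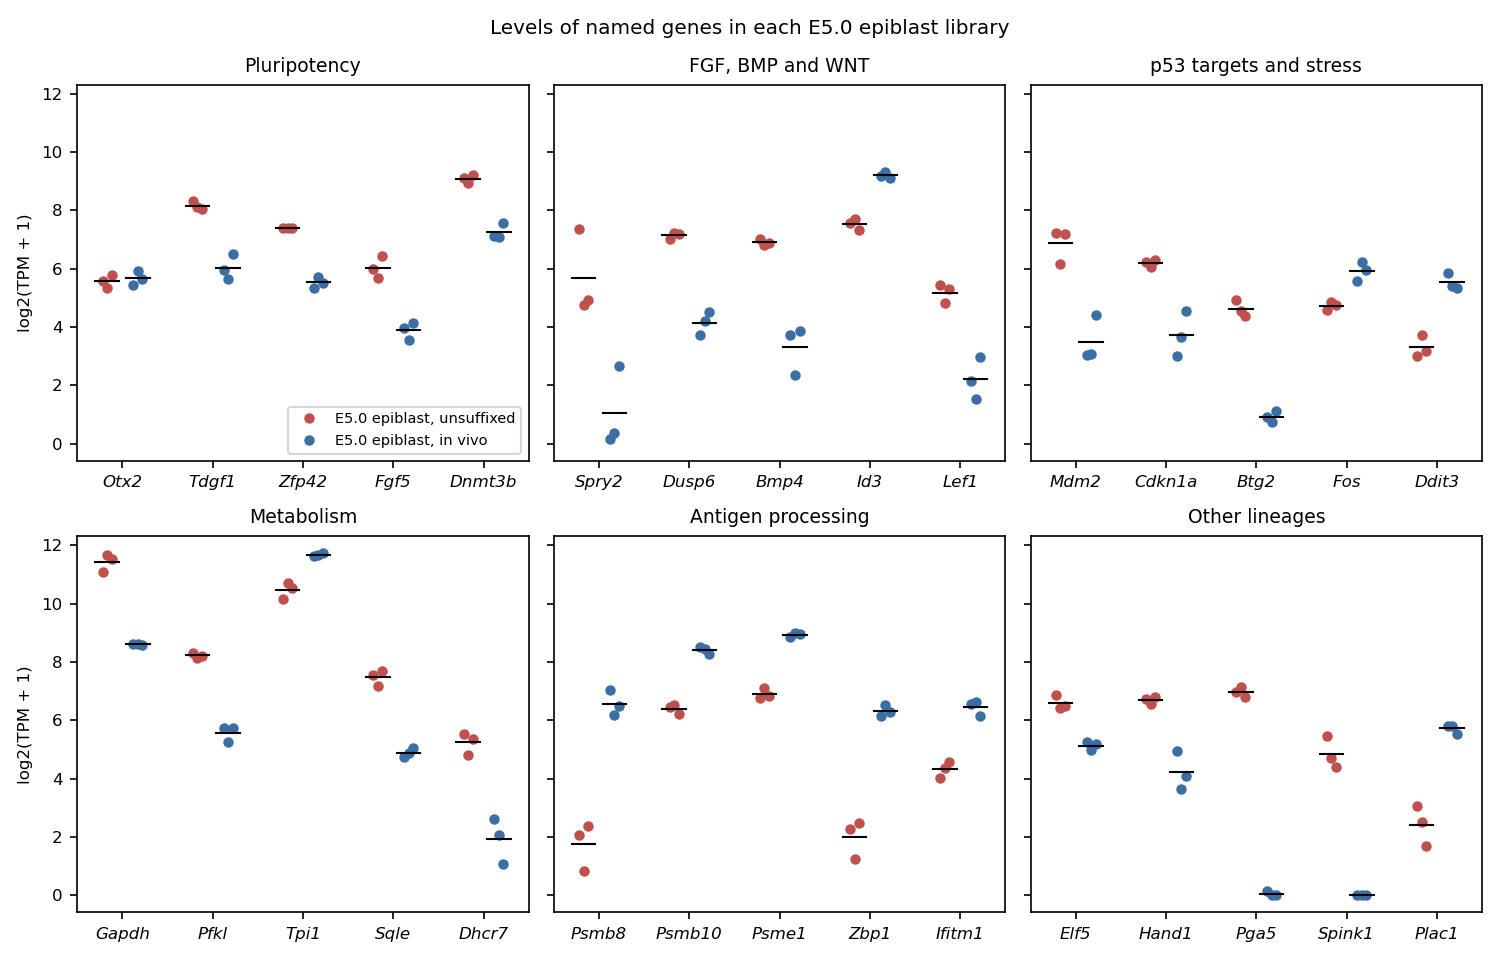
log2(TPM + 1) of 30 named genes in each E5.0 epiblast library, unsuffixed to the left of in vivo, with 1 point per library and a line at the mean of 3. Otx2 lay at the same height in both groups, whereas Tdgf1, Dusp6, Mdm2 and Gapdh were higher in every unsuffixed library and Psmb8, Id3 and Ddit3 lower in every one.

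Most measured genes of the FGF and ERK pathway, through which FGF4 drives the epiblast out of the naive state, were higher in unsuffixed libraries on TPM. Of 16 genes 10 were higher and 0 lower, with a median of 1.41, and 6 were higher under every scaling. The receptor gene Fgfr1 had 9.96, 8.70 and 8.91 TPM in unsuffixed libraries, against 4.73, 4.17 and 4.29 TPM in vivo. All unsuffixed values were above all in vivo values, but its difference of 0.92 ± 0.32 (adjusted p = 0.0244) stayed below 1 and was not called. Dusp6, a phosphatase that turns off ERK and is itself an ERK target, had 129, 149.9 and 145 TPM in unsuffixed libraries, against 12.3, 17.4 and 21.7 TPM in vivo. The 3 libraries of each group lay close together and the groups far apart, by 3.00 ± 0.22 (adjusted p = 2.7e-16). Spry2, a feedback inhibitor of receptor tyrosine kinases, had 164, 26.2 and 29.2 TPM in unsuffixed libraries, against 0.128, 0.302 and 5.29 TPM in vivo. Unsuffixed replicate 1 was far above the other two, yet all 3 exceeded each in vivo library, and the difference was 4.62 ± 0.43 (adjusted p = 2.3e-12). Etv4, an ETS factor induced by FGF, had 17.7, 9.02 and 17.5 TPM in unsuffixed libraries, against 0, 0.110 and 0.982 TPM in vivo. It was at or under 1 TPM in every in vivo library, and the difference was 3.54 ± 0.42 (adjusted p = 1.6e-09).

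In the BMP pathway 2 ligand genes and 2 target genes moved in opposite directions. Of 19 genes of the pathway tested, 7 were higher and 2 lower, with a median of 0.39, and 3 higher and 2 lower calls held under every scaling. Bmp4 (chromosome 14, 46383525 to 46390669, GRCm38), the ligand that patterns the epiblast from the extra-embryonic side, had 129, 112 and 117 TPM in unsuffixed libraries, against 12.3, 4.08 and 13.7 TPM in vivo. The lowest unsuffixed library was many times the highest in vivo one, with a difference of 3.59 ± 0.62 (adjusted p = 6.4e-06). Bmp8b, a related ligand of the extra-embryonic ectoderm, had 29.6, 22.1 and 29.7 TPM in unsuffixed libraries, against 11.7, 1.95 and 3.24 TPM in vivo. It too was separate, by 2.36 ± 0.40 (adjusted p = 5.6e-06), but the fit of the 6 libraries alone gave an adjusted p of 0.0517. Id1, a direct BMP target that blocks basic helix-loop-helix factors, had 48.3, 71.0 and 44.5 TPM in unsuffixed libraries, against 132, 119 and 148 TPM in vivo. Id3, its relative with the same role, had 189, 209 and 162 TPM in unsuffixed libraries, against 584, 635 and 559 TPM in vivo. Both were lower in every unsuffixed library, with a difference of -1.29 ± 0.32 (adjusted p = 0.0011) for Id1 and -1.67 ± 0.28 (adjusted p = 3.0e-06) for Id3.

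Of 16 Nodal pathway genes 3 were higher and 1 lower, with a median of 0.52, a share of higher genes near the 20.5% of all genes. Quantile normalization gave 2 higher and 3 lower, and the GC correction 1 higher and 3 lower. The ligand gene Nodal had 22.05, 24.0 and 24.0 TPM in unsuffixed libraries, against 4.41, 8.17 and 6.65 TPM in vivo. The groups were separate, by 1.75 ± 0.44 (adjusted p = 0.0015), and the call was lost after quantile normalization, the GC correction and a pseudocount of 0.1 TPM. Lefty2, a Nodal antagonist, had 6.20, 9.97 and 6.84 TPM in unsuffixed libraries and was listed at 0 in all 3 in vivo libraries. Its call, given without a fold, was also made under every scaling. Lefty1, the paralogous antagonist, had 7.17, 2.29 and 10.5 TPM in unsuffixed libraries, against 19.4, 22.6 and 16.5 TPM in vivo. It was lower in unsuffixed libraries with a difference of -1.59 ± 0.45 (adjusted p = 0.0044), opposite to Lefty2, and lost its call without unsuffixed replicate 2 (-1.07, adjusted p = 0.0866), with a pseudocount of 0.1 TPM, and in the fit of the 6 libraries alone (adjusted p = 0.0961).

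Of 23 WNT pathway genes, 9 were higher and 1 lower, with a median of 0.70, and 5 higher and 1 lower calls held under every scaling. Wnt7b, a ligand of the extra-embryonic ectoderm, had 25.0, 15.6 and 22.6 TPM in unsuffixed libraries, against 1.18, 2.08 and 6.17 TPM in vivo. Every unsuffixed library was above the in vivo ones, by 2.58 ± 0.59 (adjusted p = 5.2e-04). Wnt11, a ligand of non-canonical signalling, had 8.09, 9.21 and 7.03 TPM in unsuffixed libraries, against 0.544, 0 and 0 TPM in vivo. It was listed at 0 in 2 of the 3 in vivo libraries, and the difference was 2.97 ± 0.48 (adjusted p = 1.7e-06).

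Targets of p53, the transcription factor that halts the cell cycle or starts apoptosis after damage, had the largest median on TPM of the lists in the plot of gene lists. Of 20 genes 12 were higher and 0 lower, with a median of 1.46, and 7 were higher under every scaling. Mdm2, the ubiquitin ligase that degrades p53, had 151, 71.4 and 145 TPM in unsuffixed libraries, against 7.28, 7.36 and 20.2 TPM in vivo. The groups were far apart, by 3.36 ± 0.23 (adjusted p = 4.6e-17). Cdkn1a, the cell cycle inhibitor p21, had 74.9, 65.1 and 77.7 TPM in unsuffixed libraries, against 7.10, 11.7 and 22.3 TPM in vivo. The unsuffixed libraries were close together and above the in vivo ones, by 2.45 ± 0.46 (adjusted p = 3.0e-05). Ccng1, cyclin G1, had 189, 75.3 and 181 TPM in unsuffixed libraries, against 22.1, 32.1 and 17.3 TPM in vivo. Its groups did not overlap either, with a difference of 2.52 ± 0.43 (adjusted p = 5.9e-06).

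Plk2, a polo-like kinase induced by p53, had 61.2, 40.1 and 69.3 TPM in unsuffixed libraries, against 0.669, 0.801 and 0 TPM in vivo. Its difference of 5.29 ± 0.48 (adjusted p = 6.1e-13) was among the 12 largest higher calls, and no in vivo library reached 1 TPM. Sesn2, a stress-induced regulator of mTORC1, had 45.6, 39.1 and 33.7 TPM in unsuffixed libraries, against 0.274, 1.47 and 0.889 TPM in vivo. It differed by 4.47 ± 0.46 (adjusted p = 2.9e-11) with both groups tight relative to the gap. Btg2 (chromosome 1, 134074865 to 134079155, GRCm38), an antiproliferative p53 target that is also an immediate early gene, had 29.5, 22.2 and 20.0 TPM in unsuffixed libraries, against 0.901, 0.664 and 1.20 TPM in vivo. Every unsuffixed library was far above the in vivo ones, by 3.69 ± 0.39 (adjusted p = 8.7e-11).

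Stress and immediate early genes did not share 1 direction. Of 25 immediate early genes, which respond within minutes to growth factors or handling, 8 were higher and 5 lower, with a median of 0.07, and 3 in each direction held under every scaling. Junb, an AP-1 subunit, had 62.6, 46.3 and 56.1 TPM in unsuffixed libraries, against 4.97, 3.56 and 2.28 TPM in vivo. It was higher in all unsuffixed libraries, by 3.64 ± 0.33 (adjusted p = 5.8e-13). Its partner Fos had 23.3, 28.0 and 25.8 TPM in unsuffixed libraries, against 47.1, 75.0 and 60.6 TPM in vivo. Fos was lower in all of them, with a difference of -1.19 ± 0.35 (adjusted p = 0.0061). Fosb was listed at 0 in all unsuffixed libraries and had 1.46, 5.86 and 2.71 TPM in vivo, and its lower call is given without a fold. Zfp36l1, which promotes decay of AU-rich mRNAs, had 34.4, 21.7 and 22.7 TPM in unsuffixed libraries, against 54.5, 76.3 and 59.5 TPM in vivo, lower in every unsuffixed library with a difference of -1.26 ± 0.22 (adjusted p = 7.6e-06).

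Among 16 heat shock and chaperone genes 0 were called in limma in either direction on TPM, with a median of -0.04, while quantile normalization gave 1 higher and 1 lower, median-ratio scaling 2 lower and the GC correction 4 lower. Ddit3, the CHOP factor of endoplasmic reticulum stress, had 7.06, 12.3 and 8.10 TPM in unsuffixed libraries, against 57.5, 41.4 and 40.0 TPM in vivo. It was the only unfolded protein response gene of 15 called lower, with a difference of -2.23 ± 0.56 (adjusted p = 0.0016), whereas 4 of the 15 were higher on TPM and 0 of these under every scaling.

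Glycolysis genes were more often higher than lower in unsuffixed libraries. Of 20 genes 10 were higher, 1 was lower and 9 were not called, with a median of 0.85, and 8 were higher under every scaling. The counts were 9 higher and 2 lower after quantile normalization, and 9 higher and 4 lower after median-ratio scaling and after the GC correction. Gapdh, a glycolytic enzyme often used as a loading control, had 2190.4, 3224 and 2953 TPM in unsuffixed libraries, against 391, 393 and 378 TPM in vivo. Each unsuffixed library held several times the TPM of any in vivo library, with a difference of 2.83 ± 0.13 (adjusted p = 3.6e-24). Pfkl, a phosphofructokinase subunit, had 319, 282 and 298 TPM in unsuffixed libraries, against 51.8, 37.6 and 52.3 TPM in vivo, and its groups differed by 2.65 ± 0.18 (adjusted p = 3.4e-17). Slc16a3, an exporter of lactate, had 227, 145 and 166 TPM in unsuffixed libraries, against 16.4, 12.6 and 20.2 TPM in vivo. No in vivo library came near the unsuffixed ones, and the difference was 3.37 ± 0.50 (adjusted p = 3.6e-07). Tpi1, triosephosphate isomerase, the enzyme just before Gapdh in the pathway, had 1145, 1670.0 and 1475 TPM in unsuffixed libraries, against 3186, 3228 and 3403 TPM in vivo. It was lower in all unsuffixed libraries, with a difference of -1.21 ± 0.10 (adjusted p = 1.2e-14). After quantile normalization its difference was -0.84, short of the threshold of 1.

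Cholesterol synthesis, driven by the factor SREBP2 when sterols are scarce, was higher in 13 of 23 genes and lower in 0, with a median of 1.10, and 9 were higher under every scaling. Sqle, squalene epoxidase, had 185, 143 and 207 TPM in unsuffixed libraries, against 26.0, 28.1 and 32.3 TPM in vivo. The groups were separate, by 2.58 ± 0.34 (adjusted p = 2.2e-08). Dhcr7, the last reductase of the pathway, had 45.0, 27.4 and 40.5 TPM in unsuffixed libraries, against 5.18, 3.22 and 1.08 TPM in vivo. It was low in all in vivo libraries and differed by 3.32 ± 0.33 (adjusted p = 1.8e-11). Insig1, an SREBP target whose protein retains SREBP in the endoplasmic reticulum, had 176, 54.3 and 74.9 TPM in unsuffixed libraries, against 13.6, 5.05 and 19.07 TPM in vivo, a difference of 2.91 ± 0.37 (adjusted p = 8.4e-09). Hmgcs1, which makes HMG-CoA, had 138, 29.3 and 92.9 TPM in unsuffixed libraries, against 18.8, 12.6 and 11.1 TPM in vivo. Unsuffixed replicate 2 was the lowest of its group but above all in vivo libraries. The difference was 2.31 ± 0.37 (adjusted p = 1.8e-06), and the fit of the 6 libraries alone gave an adjusted p of 0.0631.

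A sterol response element, searched as TCACNCCAC on both strands, was found within the window of 250 bases before to 50 after the start of 178 of 12085 tested genes (1.47%). Of the cholesterol list, 15 genes had a window and 1 held the element. That gene was Hmgcs1, whose window is shown because it carries the only match in the list. It lies at chr13:119690101-119690400 on the plus strand (RefSeq, GRCm38.p6), and capitals mark the element TCACCCCAC, whose first base is at -137 from the start.
Hmgcs1: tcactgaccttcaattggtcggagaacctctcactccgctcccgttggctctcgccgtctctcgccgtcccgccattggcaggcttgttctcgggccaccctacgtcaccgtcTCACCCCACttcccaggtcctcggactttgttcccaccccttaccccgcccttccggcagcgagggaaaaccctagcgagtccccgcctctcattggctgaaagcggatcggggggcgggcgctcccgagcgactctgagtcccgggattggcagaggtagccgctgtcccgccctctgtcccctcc
The match is a description of the letters and was not tested for binding.

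Genes of DNA replication and the G1/S transition were higher in 13 of 18 and lower in 1, with a median of 1.31, and 6 were higher under every scaling. Mcm2, a subunit of the replicative helicase, had 376, 240.0 and 327 TPM in unsuffixed libraries, against 74.6, 50.7 and 60.8 TPM in vivo. The groups were separate, by 2.32 ± 0.25 (adjusted p = 1.7e-10). Mitosis genes gave 6 higher and 0 lower of 18, with a median of 0.57, and 3 were higher under every scaling. That median was near the 0.55 of genes that passed the filter within the 6 libraries. Oxidative phosphorylation genes gave 5 higher and 1 lower of 84 (median 0.06), a share of higher genes below the 20.5% of all genes. Their direction turned with the scaling, to 0 higher and 11 lower after median-ratio scaling (median -0.47) and 0 higher and 15 lower after the GC correction (median -0.50).

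Replication-dependent histone genes, whose mRNAs mostly lack a poly(A) tail, split in direction. Of 69 histone genes tested 12 were higher and 7 lower, with a median of -0.09, and 5 higher and 7 lower calls held under every scaling. H2ac12, a histone H2A gene, had 110.3, 169.7 and 153 TPM in unsuffixed libraries, against 10.8, 8.33 and 10.3 TPM in vivo. H3c14, a histone H3 gene, had 14.7, 10.8 and 13.1 TPM in unsuffixed libraries, against 186, 244 and 183 TPM in vivo. The 2 genes were separate between groups in opposite directions, by 3.73 ± 0.25 (adjusted p = 3.1e-17) for H2ac12 and -3.88 ± 0.40 (adjusted p = 3.5e-11) for H3c14. Near-identical histone copies can share reads, so which copy gave a value is uncertain.

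Chromatin regulators gave few calls that held. Of 32 Polycomb genes 7 were higher and 0 lower on TPM (median 0.71), a share of higher genes near the 20.5% of all genes. The counts were 2 higher and 7 lower after quantile normalization and 2 higher and 5 lower after the GC correction. Rbbp4, a histone-binding subunit shared by Polycomb and other complexes, had 186, 132 and 175 TPM in unsuffixed libraries, against 28.7, 18.0 and 33.5 TPM in vivo. It was 1 of 2 Polycomb genes higher under every scaling, by 2.60 ± 0.17 (adjusted p = 1.9e-17). Ezh2, the H3K27 methyltransferase, had 21.2, 20.1 and 20.2 TPM in unsuffixed libraries, against 37.6, 45.9 and 40.5 TPM in vivo. Its difference of -0.97 ± 0.27 (adjusted p = 0.0041) was just short of the threshold, and became a lower call after quantile normalization (-1.46), median-ratio scaling (-1.48) and the GC correction (-1.35). Kdm6b, an H3K27 demethylase, had 22.5, 7.58 and 5.71 TPM in unsuffixed libraries, against 0.226, 1.59 and 0.563 TPM in vivo, a difference of 2.70 ± 0.33 (adjusted p = 5.0e-09). It was the only 1 of 10 demethylases called under every scaling.

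Psmb8 and Zbp1, genes of antigen processing and innate sensing, were the largest lower calls of the naming rule. Psmb8 (chromosome 17, 34198195 to 34201454, GRCm38), a catalytic subunit of the immunoproteasome that cuts peptides for MHC class I, had 3.24, 0.787 and 4.25 TPM in unsuffixed libraries, against 129, 71.4 and 89.5 TPM in vivo. No unsuffixed library reached the level of any in vivo library, and the difference was -4.80 ± 0.44 (adjusted p = 8.7e-13). Psmb10, another immunoproteasome subunit, had 87.4, 90.7 and 74.0 TPM in unsuffixed libraries, against 362, 351 and 310.0 TPM in vivo. Psme1, a subunit of the PA28 proteasome activator, had 107, 138 and 112 TPM in unsuffixed libraries, against 457, 511 and 495 TPM in vivo. Both were lower in all unsuffixed libraries, with a difference of -2.01 ± 0.47 (adjusted p = 6.8e-04) for Psmb10 and -2.03 ± 0.20 (adjusted p = 1.9e-11) for Psme1. Psme2, the other PA28 subunit, had 199, 213 and 222 TPM in unsuffixed libraries, against 692, 749 and 884 TPM in vivo, a difference of -1.86 ± 0.16 (adjusted p = 3.1e-13).

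Zbp1, a sensor of left-handed nucleic acids that triggers cell death, had 3.80, 1.35 and 4.58 TPM in unsuffixed libraries, against 70.4, 90.4 and 76.1 TPM in vivo. It too was separate, with a difference of -4.32 ± 0.49 (adjusted p = 6.5e-10). Ifitm1, an interferon-induced membrane protein also known from early germ cells, had 15.2, 19.4 and 22.8 TPM in unsuffixed libraries, against 94.0, 97.4 and 70.4 TPM in vivo, lower, with a difference of -2.13 ± 0.33 (adjusted p = 7.2e-07). The wider lists held calls in both directions. Of 17 interferon and innate genes 2 were higher and 2 lower, with a median of 0.00. Of 48 proteasome genes, a list chosen after values were seen, 5 were higher and 10 lower, with a median of -0.47, and 2 higher and 7 lower calls held under every scaling. Median-ratio scaling gave 3 higher and 21 lower (median -0.99), and the GC correction 2 higher and 22 lower (median -0.98).

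Cytoplasmic ribosomal protein genes took 16.5% to 18.4% of TPM in unsuffixed libraries and 23.2% to 24.5% in vivo. Of 82 genes 1 was higher and 11 lower, with a median of -0.47, and 6 were lower under every scaling. The lower count was 7 after quantile normalization (median -0.27), 39 after median-ratio scaling (median -0.998) and 49 after the GC correction (median -1.10). Rps4x, a protein of the small subunit, had 1495, 1732 and 1634 TPM in unsuffixed libraries, against 5801, 5493 and 5566 TPM in vivo. Rpl7, a protein of the large subunit, had 1919, 2232 and 2301 TPM in unsuffixed libraries, against 5573, 5507 and 5440.2 TPM in vivo. Both were lower in every unsuffixed library, with a difference of -1.80 ± 0.11 (adjusted p = 6.4e-19) for Rps4x and -1.36 ± 0.10 (adjusted p = 1.2e-15) for Rpl7. Ribosomal protein genes have many near-identical pseudogene copies, so how their reads were split is uncertain.

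The actin cytoskeleton list gave 8 higher and 1 lower of 32, with a median of 0.49, and 5 were higher under every scaling. Its share of higher genes on TPM was close to the 20.5% of all genes. Actb, the main cytoplasmic actin, had 8567, 5251 and 4787 TPM in unsuffixed libraries, against 573, 553 and 622 TPM in vivo. The unsuffixed libraries were all far above the in vivo ones, by 3.36 ± 0.15 (adjusted p = 6.9e-24). Actn4, an actin cross-linker, had 236, 137 and 188 TPM in unsuffixed libraries, against 8.17, 7.50 and 18.8 TPM in vivo, a difference of 3.99 ± 0.26 (adjusted p = 1.6e-17). Among 21 splicing factors and CLK kinases 4 were higher and 4 lower, with a median of 0.51. Under every scaling 3 higher and 2 lower calls held. The list's share of higher genes was near the 20.5% of all genes, and its share of lower genes was above their 2.59%. Quantile normalization gave 3 higher and 5 lower, median-ratio scaling 4 and 6, and the GC correction 4 and 4. Arglu1, a splicing co-regulator, had 402, 91.2 and 90.9 TPM in unsuffixed libraries, against 3.30, 4.52 and 5.64 TPM in vivo. Unsuffixed replicate 1 stood above the rest, and all 3 were above the in vivo libraries, by 4.80 ± 0.35 (adjusted p = 3.7e-16). Clk1, a kinase of SR splicing factors, had 66.1, 60.9 and 64.5 TPM in unsuffixed libraries, against 297, 208 and 276 TPM in vivo. It was lower in every unsuffixed library, with a difference of -1.997 ± 0.18 (adjusted p = 9.3e-13).

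**Figure D3:**
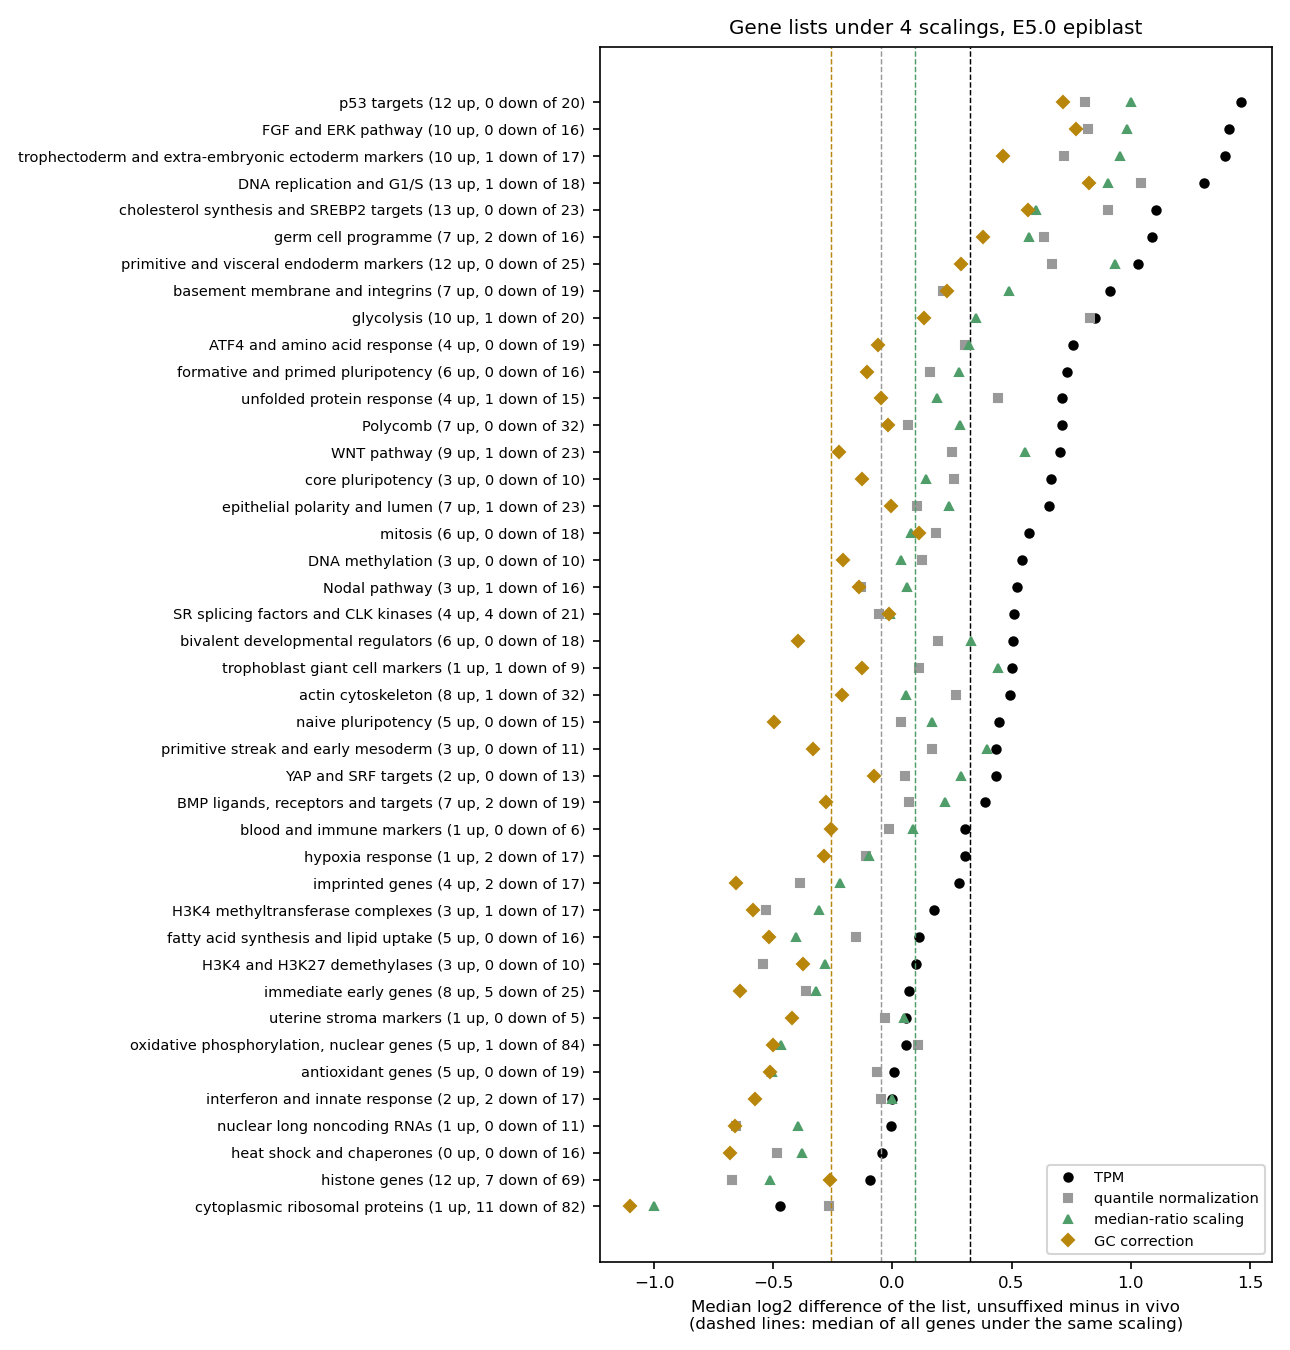
Median log2 difference, unsuffixed minus in vivo, of each gene list with at least 5 genes tested, under TPM, quantile normalization, median-ratio scaling and the GC correction, with counts called higher (up) and lower (down) on TPM. Dashed lines mark the median of all genes, which was 0.33, -0.05, 0.09 and -0.26. The p53 list lay highest on TPM (1.46) and the ribosomal proteins lowest (-0.47).

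Trophoblast markers were present in both groups, and part of them were higher in unsuffixed libraries. Of 17 trophectoderm and extra-embryonic ectoderm markers 10 were higher and 1 lower on TPM (median 1.40), and 4 higher and 1 lower calls held under every scaling. Their summed level was 1182 to 1330 TPM in unsuffixed libraries and 953 to 1095 TPM in vivo, and 0 of them were listed at 0 in a whole group. Elf5, a defining factor of the extra-embryonic ectoderm, had 117, 84.8 and 89.9 TPM in unsuffixed libraries, against 37.1, 30.3 and 35.2 TPM in vivo. No in vivo library reached the unsuffixed range. The difference of 1.47 ± 0.24 (adjusted p = 3.5e-06) fell below 1 after quantile normalization (0.91), median-ratio scaling (0.95) and the GC correction (0.87). In the extra-embryonic ectoderm of E4.75, Elf5 was 190 to 215 TPM, and in epiblast of E4.75 it was 81.0 to 86.6 TPM. The part that such cells or transcripts play in Bmp4, Bmp8b, Wnt7b and other genes of that tissue was not tested.

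Hand1, a giant cell factor, had 105, 93.6 and 111 TPM in unsuffixed libraries, against 29.9, 11.4 and 16.1 TPM in vivo. It was higher in all unsuffixed libraries, by 2.47 ± 0.33 (adjusted p = 4.3e-08), and was 366 to 379 TPM in giant cells of E4.75. In epiblast of E4.75 Hand1 was 94.5 to 107 TPM, and in primitive endoderm of E5.0 67.2 to 78.9 TPM. Of 9 giant cell markers tested 1 was higher, 1 lower and 7 not called, with a median of 0.50. The giant cell prolactin gene Prl3d1, which reached 18877 to 22555 TPM in those giant cells, was 0 to 1.12 TPM in unsuffixed libraries and listed at 0 in vivo. Gata3, a trophoblast factor, had 30.6, 14.4 and 12.9 TPM in unsuffixed libraries, against 3.26, 2.12 and 0.228 TPM in vivo. Its groups were separate, by 2.90 ± 0.72 (adjusted p = 0.0012). Cdx2, the defining trophectoderm factor, had 3.41, 0.230 and 8.69 TPM in unsuffixed libraries, against 0.933, 0.497 and 0 TPM in vivo. These overlapped, and its narrow call, with a difference of 1.39 ± 0.49 (adjusted p = 0.0232), was lost after quantile normalization, median-ratio scaling and the GC correction, with a pseudocount of 0.1 TPM, in the fit of the 6 libraries alone, and without unsuffixed replicate 1 (adjusted p = 0.0820), unsuffixed replicate 3 (0.343) or in vivo replicate 3 (0.116). Without unsuffixed replicate 2 the Cdx2 difference was 2.197.

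2 trophoblast genes went the other way. Plac1, a placental membrane-associated protein, had 7.34, 4.66 and 2.25 TPM in unsuffixed libraries, against 55.5, 55.5 and 45.8 TPM in vivo. Ascl2, an imprinted trophoblast factor, had 15.3, 7.82 and 8.66 TPM in unsuffixed libraries, against 74.0, 50.5 and 68.5 TPM in vivo. Both were lower in every unsuffixed library, with a difference of -3.31 ± 0.52 (adjusted p = 9.4e-07) for Plac1 and -2.53 ± 0.60 (adjusted p = 7.6e-04) for Ascl2.

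Several endoderm markers were at or near 0 in the in vivo libraries and not in the unsuffixed ones. Of 25 primitive and visceral endoderm markers 12 were higher and 0 lower (median 1.03), and 7 were higher under every scaling. Their summed level was 1094 to 1266 TPM in unsuffixed libraries and 910 to 990 TPM in vivo, and 14 of them were listed at 0 in all in vivo libraries, against 1 in all unsuffixed libraries. Of the 25006 genes of the table, Rn45s included, single in vivo libraries listed 13461 to 14004 at 0, and single unsuffixed libraries 10192 to 11614. These are counts per library. The count of all genes at 0 in every library of a group is not given here, so they are not a like background for the 14. Of 26 bivalent developmental regulators, 15 were at 0 in all in vivo libraries and 7 in all unsuffixed libraries. Pga5, a pepsinogen gene, had 124, 139 and 110.3 TPM in unsuffixed libraries, against 0.103, 0 and 0 TPM in vivo. The difference of 6.92 ± 0.44 (adjusted p = 3.1e-18) was the largest higher call of the naming rule. Spink1, a secreted protease inhibitor, had 42.6, 25.4 and 20.3 TPM in unsuffixed libraries and was listed at 0 in vivo. Ttr, the thyroid hormone carrier secreted by visceral endoderm, had 9.59, 11.5 and 15.3 TPM in unsuffixed libraries and was likewise listed at 0 in vivo.

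Srgn, a proteoglycan core protein, had 38.8, 35.0 and 44.7 TPM in unsuffixed libraries, against 6.25, 1.07 and 0 TPM in vivo. Amn, a subunit of the endocytic cubilin receptor, had 27.1, 34.1 and 20.8 TPM in unsuffixed libraries, against 0, 0 and 2.57 TPM in vivo. Both were called higher, by 4.03 ± 0.40 (adjusted p = 8.9e-12) for Srgn and 4.18 ± 0.45 (adjusted p = 1.1e-10) for Amn. The defining factor Gata6 had 0.893, 0 and 0 TPM in unsuffixed libraries and was listed at 0 in vivo. Pdgfra, whose promoter drives the reporter, had 0.168, 0.0259 and 1.08 TPM in unsuffixed libraries and was listed at 0 in vivo. Neither was called. In primitive endoderm of E5.0, Pga5 was 4317 to 4671 TPM, Spink1 3545 to 3962 TPM and Ttr 2193 to 2486 TPM. The unsuffixed epiblast libraries held a small share of those levels. Epiblast of E4.75 held these genes too, with Pga5 at 16.2 to 21.9 TPM, Spink1 at 75.6 to 88.6 TPM and Ttr at 9.08 to 10.7 TPM. Srgn was 57.7 to 67.6 TPM and Amn 42.0 to 48.9 TPM in that group. In both E5.25 groups Spink1 did not exceed 0.685 TPM and Ttr was listed at 0. The part of endoderm cells or free transcripts was not tested. Uterine stroma markers summed to 7.26 to 10.8 TPM in unsuffixed libraries and 5.89 to 7.96 TPM in vivo. Blood and immune markers summed to 22.7 to 31.0 TPM in unsuffixed libraries and 14.7 to 22.2 TPM in vivo.

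The miR-302/367 cluster, a set of pluripotency microRNAs, lies inside the gene Larp7 and the long noncoding RNA gene Gm51018. The cluster spans chr3:127545228-127545807 on the plus strand of GRCm38. Its hairpin rows were chosen here after their values were seen, except Mir302c. The mature sequences are shown because 3 of them share most of a seed, with bases 2 to 8 in capitals (RefSeq, GRCm38.p6, plus strand).
mmu-miR-302b-3p (chr3:127545275-127545297): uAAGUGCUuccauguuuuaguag
mmu-miR-302d-3p (chr3:127545665-127545687): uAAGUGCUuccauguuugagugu
mmu-miR-302c-3p (chr3:127545406-127545427): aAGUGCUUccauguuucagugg
mmu-miR-367-3p (chr3:127545779-127545800): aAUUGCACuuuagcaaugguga
miR-302b-3p and miR-302d-3p have the same seed, the seed of miR-302c-3p is shifted by 1 base along the same letters, and miR-367-3p has another.

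The hairpin row Mir302c was listed at 0 in all unsuffixed libraries and had 23.2, 0.686 and 17.1 TPM in vivo. Mir302b was also at 0 in the unsuffixed group and had 11.2, 0.657 and 14.5 TPM in vivo. Mir302a had 0.961, 0 and 0 TPM in unsuffixed libraries, against 20.0, 1.55 and 12.4 TPM in vivo. In vivo replicates 1 and 3 were high and replicate 2 was low for each of these genes. Mir302d and Mir367 showed the same split, with 13.5, 0 and 9.09 TPM in vivo for Mir302d and 22.1, 0 and 11.4 TPM for Mir367, and both at 0 in all unsuffixed libraries. All 5 were called lower in the fit of all groups, and all 5 lost the call in the fit of the 6 libraries alone, with adjusted p of 0.0950 to 0.207. Mir302d also lost it without in vivo replicate 1 (adjusted p = 0.127) or 3 (0.0767), and Mir367 without in vivo replicate 1 (0.0728). Poly(A) RNA libraries do not measure mature microRNAs, and a row for a hairpin within another gene can hold reads of a longer transcript, here of Larp7 or Gm51018.

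Eras, a Ras-like gene of pluripotent cells on the X chromosome, had 9.85, 6.45 and 2.63 TPM in unsuffixed libraries, against 38.9, 52.1 and 52.9 TPM in vivo. It was lower in every unsuffixed library, with a difference of -2.87 ± 0.44 (adjusted p = 8.3e-07). Of 623 X-linked genes tested 76 (12.2%) were higher and 44 (7.06%) lower, against 20.9% and 2.39% of 14982 autosomal genes. Xist, the RNA that silences 1 X chromosome in females, had 0.587, 0.322 and 0.132 TPM in unsuffixed libraries, against 8.53, 13.7 and 11.7 TPM in vivo, a difference of -3.18 ± 0.33 (adjusted p = 4.6e-11). The Y-linked genes split in direction. Ddx3y, an RNA helicase, had 22.2, 3.34 and 10.2 TPM in unsuffixed libraries, against 2.08, 1.26 and 1.63 TPM in vivo. Uty, a demethylase-related gene, had 7.18, 0.835 and 5.19 TPM in unsuffixed libraries, against 0.377, 0 and 0.158 TPM in vivo. Eif2s3y, a translation factor, had 41.2, 25.9 and 52.1 TPM in unsuffixed libraries, against 109.9, 101 and 101 TPM in vivo. Ddx3y was higher by 1.98 ± 0.51 (adjusted p = 0.0017) and Uty by 1.95 ± 0.43 (adjusted p = 3.4e-04), both lost in the fit of the 6 libraries alone, and Eif2s3y was lower, with a difference of -1.42 ± 0.31 (adjusted p = 3.4e-04). The sex of the pooled embryos is not stated, every library held Xist and all 3 Y-linked genes except in vivo replicate 2 for Uty, and these 4 genes were chosen after their values were seen.

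Of 17 imprinted genes 4 were higher and 2 lower (median 0.28), a share of higher genes near the 20.5% of all genes. H19, a maternally expressed long noncoding RNA, had 300.1, 257 and 266 TPM in unsuffixed libraries, against 60.3, 28.6 and 66.3 TPM in vivo. It was higher in all unsuffixed libraries, by 2.47 ± 0.33 (adjusted p = 2.3e-08). Phlda2, a maternally expressed placental growth inhibitor, had 418, 449.5 and 425 TPM in unsuffixed libraries, against 1446, 1451 and 1420.0 TPM in vivo. It was lower in all of them, with a difference of -1.74 ± 0.32 (adjusted p = 2.1e-05). Sycp3, a component of the meiotic chromosome axis, had 9.93, 2.35 and 2.69 TPM in unsuffixed libraries, against 70.2, 63.4 and 66.4 TPM in vivo, lower, with a difference of -3.72 ± 0.41 (adjusted p = 1.8e-10).

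The same pair of labels exists for epiblast of E5.25, with 3 libraries each and none shared with E5.0. There, 1201 genes (7.65%) were higher and 407 (2.59%) lower in unsuffixed libraries, with a median difference of 0.15. Differences were compared with their sign by the limma test of the difference between the differences. The E5.0 difference was above the E5.25 difference in 1554 genes (9.9%) and below it in 491 (3.13%). The 491 include genes with a more negative difference at E5.0, such as Zbp1, so they are not all genes that differed less at E5.0. Of the 3621 genes called at E5.0, 1427 were also called in that test, against 2045 of all 15699 genes. The 3621 were chosen by the E5.0 comparison, which is itself part of that test. A larger share among them is thus built in, and the 1427 is only a description.

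Some genes called at E5.0 were called in the same direction at E5.25. Psmb8 differed at E5.25 by -3.40 (adjusted p = 4.4e-08), and its change between ages was -1.40 ± 0.62 (adjusted p = 0.124). Mdm2 differed at E5.25 by 2.65 (adjusted p = 4.3e-13), with a change between ages of 0.72 ± 0.32 (adjusted p = 0.137). Sesn2 differed at E5.25 by 4.34 (adjusted p = 2.0e-10) and Bmp4 by 4.23 (adjusted p = 8.6e-07). The changes between ages of these 4 genes were not called. Elf5 and Hand1 differed more at E5.25, by 5.09 (adjusted p = 1.0e-22) and 5.26 (adjusted p = 5.3e-18), and their E5.0 differences were smaller by a called amount (-3.62 and -2.79).

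Other genes had an E5.0 difference beyond that of E5.25. Gapdh at E5.25 differed by -0.60 (adjusted p = 4.2e-04), short of the threshold of 1, and its change between ages was 3.43 ± 0.18 (adjusted p = 2.5e-21). Slc16a3 at E5.25 differed by -2.38 (adjusted p = 5.0e-04), opposite to E5.0, and its change was 5.75 ± 0.71 (adjusted p = 2.1e-08). Dusp6 at E5.25 differed by 0.56 (adjusted p = 0.0717), which was not called, and its change was 2.44 ± 0.30 (adjusted p = 2.5e-08). The endoderm gene Pga5 was at or under 1 TPM in every E5.25 epiblast library, and its change was 6.60 ± 0.62 (adjusted p = 1.1e-11).

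Across the 8 epiblast groups of the series, the in vivo E5.0 group often held the extreme value. Among the 3214 higher genes, its mean was the lowest of all 8 groups in 1994, and the unsuffixed E5.0 mean was the highest in 624. Among the 407 lower genes, the in vivo E5.0 mean was the highest in 185 and the unsuffixed mean the lowest in 94. These counts describe genes already chosen by the E5.0 comparison and were not tested. Actb is an example, with 553 to 622 TPM in the in vivo E5.0 libraries and means of 9283 TPM in epiblast of E4.75, 5655 TPM in unsuffixed E5.25 and 4078 TPM in in vivo E5.25.

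**Figure D4:**
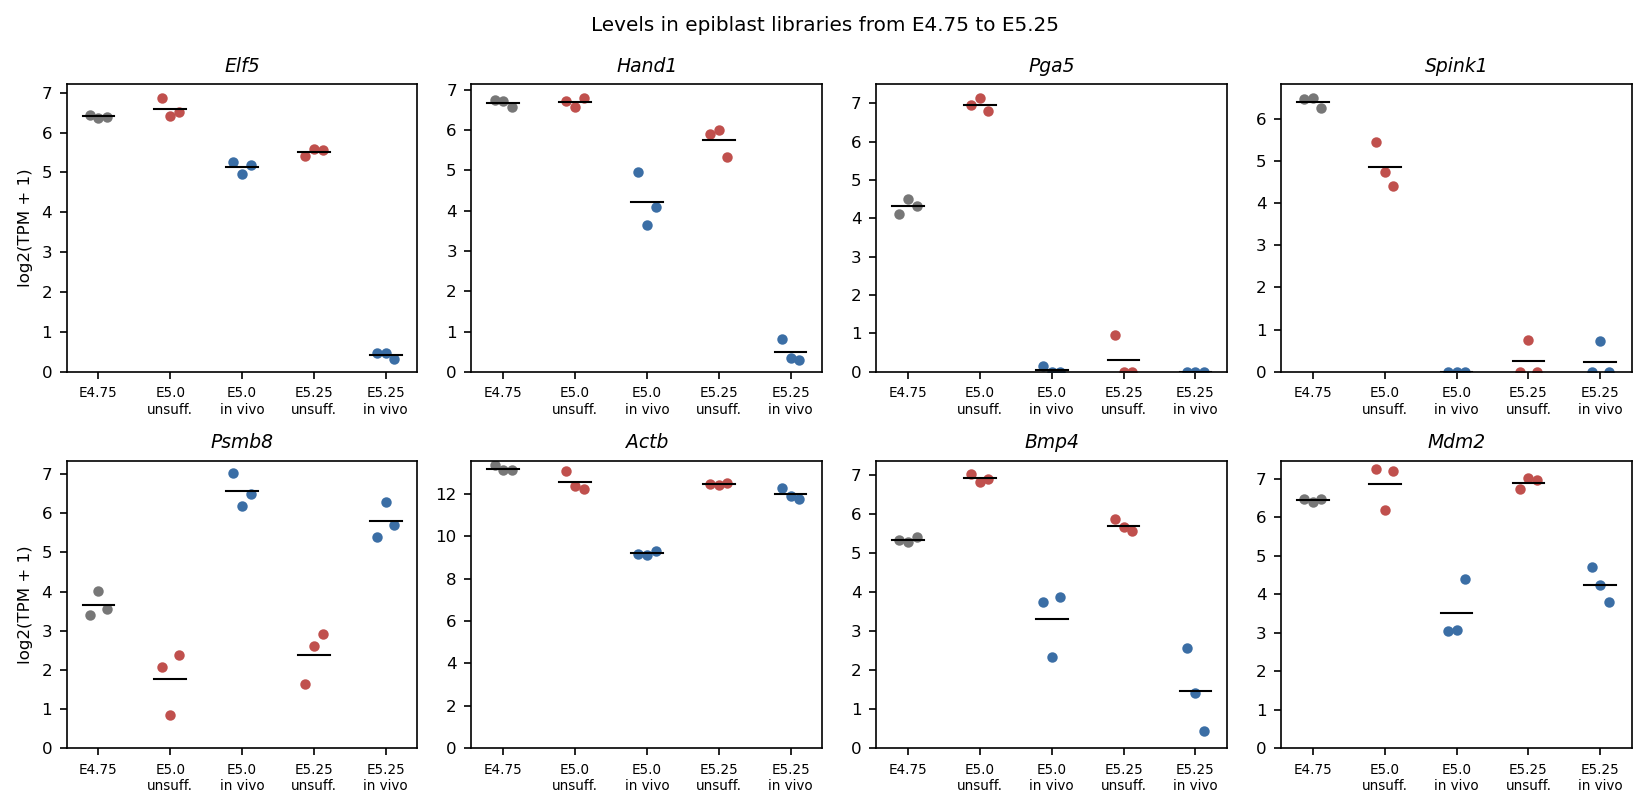
log2(TPM + 1) of 8 genes in epiblast libraries of E4.75, E5.0 and E5.25, with unsuffixed to the left of in vivo at each age, 1 point per library and a line at the mean of 3. Psmb8 was lower and Mdm2 and Bmp4 higher in unsuffixed libraries of both ages, Actb was lowest in the in vivo E5.0 libraries, and Pga5 was 110 to 139 TPM in unsuffixed E5.0 libraries and at or under 1 TPM in vivo and at E5.25.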

How the data were processed

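Smart-seq2 RNA-seq values were read from the table of TPM that the authors deposited, with 25006 genes in 67 libraries of 23 groups. HISAT2 2.2.1, StringTie 2.2.1, Cufflinks and the mm10 build are named per the submitters' processing notes, while their roles, the annotation and the strand setting are not given in the sources used here. Overlapping genes thus cannot be told apart. The row Rn45s was dropped, each column was rescaled to 1000000, and the filter kept the 15699 genes that reached 1 TPM in 3 or more libraries. A model of 23 group means over the 67 libraries was fitted to log2(TPM + 1) values (R 4.3.3, limma 3.58.1 with an intensity trend), and p-values were adjusted by Benjamini-Hochberg over all genes kept. Fold changes on this scale understate the change of low genes. The fit was run on simulated data in which a gene had the same spread in every group, as the fit assumes. That run cannot show how the fit handles groups of unequal spread.

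Genes named in the text were, for each list, the 4 largest calls in either direction at most, up to 2 uncalled members per list, the 12 largest separate calls per direction that reach 10 TPM, Btg2, Bmp4 and defining markers. Outside this rule, Ezh2, Psme2, Xist, the Y-linked genes, Mir302a, Mir302b, Mir302d and Mir367 were chosen after their values were seen. The comparison, lists and genes were chosen with earlier results of these data known. GC content and length came from GENCODE transcripts (97.6% of genes tested), and positions from RefSeq (15611 of 15699 symbols). Alternatives were another pseudocount, other filters, Rn45s kept, quantile and median-ratio scaling, array weights, fewer libraries, a replicate block, no minimum difference, each library left out, and, added after seeing the data, a GC correction and genes above 0 in all 6 libraries.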

Additional observations from a re-analysis of the deposited data

Results flagged for a closer look

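The difference between unsuffixed and in vivo libraries was not the same at E5.0 and E5.25 for 2045 genes, by the limma test of that difference. The values below are the E5.0 difference minus the E5.25 difference on the log2(TPM + 1) scale, and genes listed at 0 in a group have values that depend on the pseudocount.

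Pluripotency and signalling genes with a larger E5.0 difference were Pou5f1 (1.91), Tdgf1 (2.77), Dnmt3b (1.63), Lef1 (2.46), Nodal (2.55), Lefty2 (2.36), Spry2 (3.79), Dusp6 (2.44), Etv4 (2.93), Wnt11 (3.63) and Junb (3.70). Those with a smaller or more negative one were Sox2 (-1.88), Zfp42 (-1.39), Fosb (-2.13) and Zfp36l1 (-2.04).

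Metabolic, stress, cell cycle and chromatin genes with a larger E5.0 difference were Plk2 (2.199), Gapdh (3.43), Pfkl (3.66), Slc16a3 (5.75), Dhcr7 (2.65), Insig1 (1.92), Sqle (2.02), Mcm2 (1.97), H2ac12 (3.96), Rbbp4 (1.79), Kdm6b (2.56), Actb (2.87), Actn4 (3.21) and Arglu1 (4.44). Those with a more negative one were Clk1 (-1.12), Rps4x (-1.43), Rpl7 (-1.22), H3c14 (-5.52), Psme1 (-1.14) and Zbp1 (-3.87).

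Markers of other lineages with a larger E5.0 difference were Pga5 (6.60), Spink1 (4.85), Ttr (3.69), Srgn (4.06) and Amn (3.01), and those with a smaller or more negative one were Elf5 (-3.62), Hand1 (-2.79), Plac1 (-3.77) and Ascl2 (-3.64). The remaining genes were Phlda2 (-3.27), Sycp3 (-2.31), Xist (-1.39), Eif2s3y (-1.94), Mir302a (-3.23), Mir302b (-3.08) and Mir302c (-3.47).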

How the results depend on the processing

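The counts of 3214 higher and 407 lower genes became 1631 and 1336 under quantile normalization, 2025 and 1130 under median-ratio scaling, 1897 and 260 with the 6 libraries alone, 1363 and 1767 with the GC correction, and 1375 and 1780 with a replicate block and the GC correction. With no minimum difference the lower count was 880. Leaving out each library in turn gave 2625 to 3340 higher and 338 to 419 lower genes. The count of genes whose difference changed between E5.0 and E5.25 was 2045, 1229 with the 12 libraries alone, and 1699 to 2307 with each library left out. The replicate block gave 3224 higher and 411 lower genes. Deviations of same-numbered libraries correlated at -0.03, 0.04 and 0.05, and those of differently numbered ones at -0.07 to 0.04. Whether libraries of the same number shared a litter, day or batch cannot be told from these correlations. Directions turned only for genes that were not called. Otx2 was 0.019 with Rn45s kept, and -0.22 to 0.014 with each library left out, above 0 only without in vivo replicate 2 or unsuffixed replicate 2. Gata6 was 0 to 0.46 with each library left out, 0 being without unsuffixed replicate 1, and -0.65 with the GC correction, with or without the block. Pdgfra was -0.19 with the GC correction, with or without the block. For single genes, 1522 results kept their side of the threshold, 13 newly passed it and 45 no longer did. The cause was not tested. TPM holds no depth, so genes near 0 TPM are the least certain.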

Other observations

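Of 23 epithelial polarity and lumen genes 7 were higher and 1 lower in unsuffixed libraries on TPM, but 0 higher and 1 lower calls held under every scaling. Their median was 0.66, against 0.33 over all genes and 0.55 over genes that passed the filter within the 6 libraries. Of 19 basement membrane and integrin genes 7 were higher and 0 lower (median 0.91), and 0 held. The germ cell list gave 7 higher and 2 lower of 16 (median 1.09), of which 1 higher and 2 lower calls held. Of 10 genes of DNA methylation 3 were higher and 0 lower (median 0.55), and 2 held.

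Hypoxia, lipid and antioxidant lists had medians below that of all genes (0.33) on TPM, and the ATF4 list had one above it. Hypoxia genes gave 1 higher and 2 lower of 17 (median 0.30), and 0 higher and 2 lower calls held under every scaling. Fatty acid and lipid uptake genes gave 5 higher and 0 lower of 16 (median 0.11), and 1 held. Antioxidant genes gave 5 higher and 0 lower of 19 (median 0.01), and 2 held. The amino acid response controlled by ATF4 had 4 higher and 0 lower of 19 (median 0.76), and 2 held. Its share of higher genes was near the 20.5% of all genes.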
